A study of Mus musculus with 11 samples.

Results

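The annexins Anxa1, Anxa2, Anxa3, Anxa4 and Anxa5, the S100 genes S100a6, S100a10 and S100a11 and the galectins Lgals1 and Lgals3 were followed in RNA sequencing of sorted mouse podocytes. They are 10 of 34547 genes with a matched transcript, and they were picked by name, with earlier results of these data known. All 10 had enough reads to be tested. The 11 libraries fell into 4 groups. PodTOM mice carried 1 copy of an insertion that is active in podocytes and drives both the Cre recombinase iCre and the red fluorophore mTomato, together with wild-type Myd88 alleles, and gave 3 untreated libraries (AOL_1081, AOL_1082 and AOL_1086) and 3 libraries after nephrotoxic nephritis (AOL_1225, AOL_1231 and AOL_1265). MyD88pko mice carried the same insertion with floxed Myd88 on both alleles, so that Myd88 was deleted in the cells where the Cre is active, and gave 2 untreated libraries (BKV_729 and BKV_733) and 3 nephritic libraries (BKV_884, BKV_889 and BKV_890). Values below are listed in this order. The background is C57BL/6 in the labels and C57BL/6N in the study's methods. Nephrotoxic nephritis (NTN), an immune injury of the glomerulus, was raised in male mice 8 to 16 weeks old with a sheep serum against the glomerular basement membrane, 9 µl per g of body weight on 2 consecutive days, and podocytes were sorted on day 5. Mice without serum were studied at 8 to 52 weeks, and the age of each library's mice is not given in the sources used here. Both genotypes carried Cre and mTomato, every PodTOM title starts with AOL and every MyD88pko title with BKV, and any difference tied to these prefixes cannot be told apart from genotype.

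Annexins are cytosolic proteins that bind phospholipid membranes when calcium rises, and they serve in membrane repair, vesicle traffic and the attachment of actin to membranes. S100 proteins are small calcium-binding dimers, several of which bind a particular annexin: S100a10 binds Anxa2, the pair forming a complex at the inner face of the plasma membrane, S100a11 binds Anxa1, and S100a6 binds several annexins. Galectins bind sugars that carry β-galactosides and act both inside the cell and, after release, at the cell surface. Podocytes cover the outside of the glomerular capillaries with interlocking foot processes. In other kidney epithelia, S100a6 and Lgals3 are known as genes induced by injury.

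Library totals ranged from 14563271 to 32764201 estimated counts, with every NTN total above every untreated one. Genes with any counts numbered 18420 to 19996 in the untreated libraries and 24502 to 28672 in the NTN libraries. Myd88 was at 6.49 to 14.1 CPM (counts scaled to library size, with TMM factors) in the 6 PodTOM libraries and at 0.200 to 0.976 CPM in the 5 MyD88pko libraries. The 10 podocyte markers summed to 39826 to 51993 CPM in untreated PodTOM, 28490 to 33225 in PodTOM with NTN, 41517 to 44425 in untreated MyD88pko and 28620 to 41330 in MyD88pko with NTN. With NTN 7 of them fell and 1 rose in PodTOM, and 4 fell and 1 rose in MyD88pko. For markers of glomerular endothelium the sum was 56.4 to 95.2 CPM without and 139 to 273 CPM with NTN in PodTOM (6 of 10 rose), and 81.0 to 112 and 112 to 126 CPM in MyD88pko (2 of 10 rose). Mesangial markers were at 116 to 188 and 144 to 244 CPM in PodTOM (4 of 10 rose), and at 111 to 113 and 121 to 147 CPM in MyD88pko (0 rose). In the same order, without and then with NTN, neutrophil markers were at 12.4 to 25.1 and 30.1 to 48.1 CPM in PodTOM (1 of 5 tested rose) and were at 18.3 to 24.3 and 19.3 to 42.0 CPM in MyD88pko (0 rose), and Ly6g and Retnlg of that list stayed under 1 CPM in all libraries. Lymphocyte markers were at 9.18 to 14.8 and 18.7 to 32.9 CPM in PodTOM (2 of 7 tested rose) and at 11.8 to 15.4 and 12.5 to 34.3 CPM in MyD88pko (1 rose). Macrophage markers were at 87.4 to 106 and 72.8 to 87.9 CPM in PodTOM and at 76.6 to 95.3 and 60.8 to 71.4 CPM in MyD88pko, with 1 of 10 higher and 1 lower in each genotype. The sum of parietal epithelial markers was 68.1 to 88.8 and 93.3 to 114 CPM in PodTOM and 37.6 to 46.6 and 73.4 to 114 CPM in MyD88pko, and 1 of 7 tested rose in each, while 1 fell in MyD88pko. The podocyte sum was lower in all NTN than in all untreated libraries of each genotype. In PodTOM the endothelial, neutrophil, lymphocyte and parietal sums were higher in all NTN than in all untreated libraries. In MyD88pko the mesangial and parietal sums were higher, and the macrophage sum lower, in all NTN libraries. Proximal tubule markers overlapped in both genotypes, at 19.9 to 84.0 CPM over all libraries. The 549 vomeronasal receptor genes, which podocytes are not known to use, summed to 62.4 to 98.6 CPM in the untreated libraries and to 141 to 443 CPM in the NTN libraries, with AOL_1225, BKV_889 and BKV_884 highest. The part of these shifts in the results below was not tested beyond the refits without those 3 libraries and with the vomeronasal sum as a covariate. That sum was higher in every NTN than in every untreated library. The covariate fit therefore cannot tell a change with NTN from one tied to the sum, whether a call ends or holds under it.

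With NTN, 4 of the 10 genes rose in PodTOM and 7 of the 10 rose in MyD88pko, and none fell in either. S100a6 and Lgals1 went from at most 0.742 and 1.496 CPM to 16.6 to 40.1 and 4.31 to 11.2 CPM. Anxa3 and S100a10, which were already well expressed, also rose in both genotypes, by 1.54-fold to 2.28-fold. Anxa1, Anxa5 and Lgals3 passed the test in MyD88pko alone, and the difference between the responses of the genotypes was not called for any of the 3. Anxa2, Anxa4 and S100a11 did not pass in either genotype. For comparison, edgeR (quasi-likelihood test, Benjamini-Hochberg adjusted p below 0.05 over all 21200 genes tested) called 15.9% of all genes higher, and 25.9% in either direction, with NTN in PodTOM. The shares in MyD88pko were 11.3% and 19.5%. The median log2 fold change of the 10 genes was 0.56 in PodTOM and 0.86 in MyD88pko, against medians of 0.19 and 0.16 over all genes tested.

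The count of 7 in MyD88pko rested on both untreated libraries of that genotype: 3 genes were called without BKV_729 and 4 without BKV_733. Without the 3 libraries richest in vomeronasal reads, 5 genes rose in each genotype, and with the vomeronasal sum as a covariate, 4 in each. In bulk samples, fewer cells of a type and less RNA per cell cannot be told apart.

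**Figure D1:**
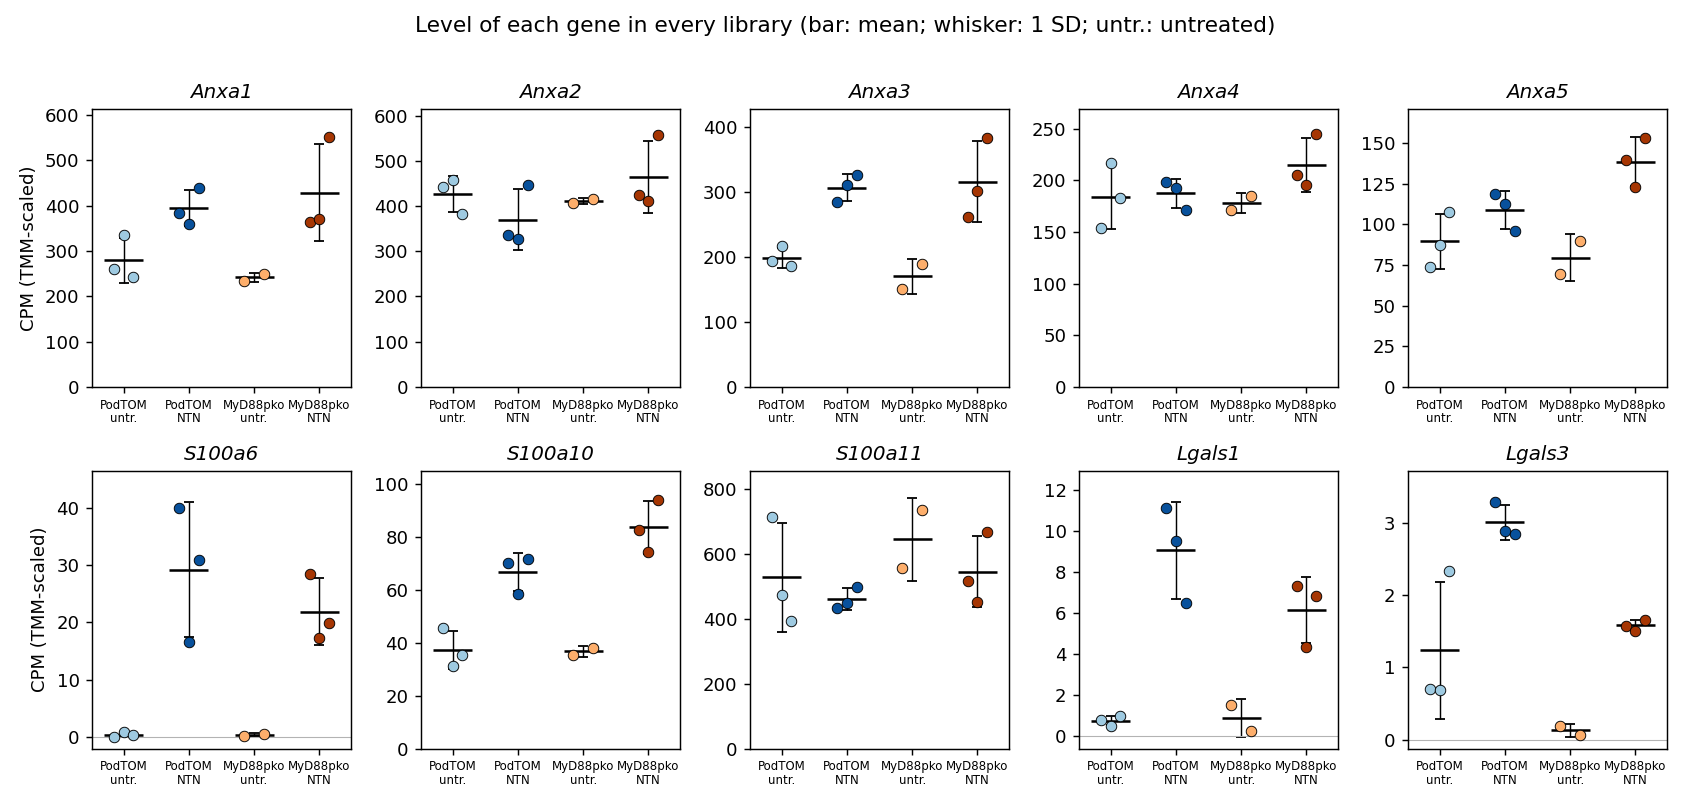
Level of each of the 10 genes in CPM (y axis, TMM-scaled, each panel starting at or just below 0) in the 11 libraries by group, with a bar at the group mean and a whisker of 1 SD. S100a6 and Lgals1 sit near 0 in all untreated libraries and are clearly detected in every NTN library, while the groups overlap for Anxa2 and S100a11 in both genotypes.

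Compared per transcript length as TPM (transcript abundance scaled to a common library total), S100a11 was the most abundant of the 10 in every group, with a mean of 2619 TPM over the 11 libraries and a range of 1895 to 3647. Anxa1 (mean 680, range 505 to 932 TPM) and Anxa2 (mean 639, range 404 to 790 TPM) followed and overlapped each other. Their order turned over with the group. In untreated libraries the mean level of Anxa2 stood above that of Anxa1, at 712 against 588 TPM in PodTOM and 716 against 539 TPM in MyD88pko. With NTN Anxa1 stood first, at 751 against 474 TPM in PodTOM and 796 against 680 TPM in MyD88pko. The libraries of these gene pairs overlapped in untreated PodTOM and did not overlap in the other 3 groups. Anxa3 (mean 427 TPM) came next and stood clear of the gene below it, and Anxa4 (236 TPM), S100a10 (199 TPM) and Anxa5 (145 TPM) overlapped over the libraries. S100a6 and the galectins were lowest when untreated, all with means of 0.192 to 2.45 TPM. With NTN the mean S100a6 level was 111 TPM in PodTOM and 94.7 TPM in MyD88pko, next to Anxa5 at 125 and 206 TPM, while Lgals1 reached 22.2 and 17.4 TPM and Lgals3 4.32 and 2.65 TPM.

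Among the annexins, Anxa3 (chr5:96793339-96845966, plus strand, GRCm38), an annexin known from neutrophil granules, rose in both genotypes. Its level was 194, 217 and 187 CPM in untreated PodTOM and 285, 311 and 327 CPM with NTN, and it was 151 and 190 CPM in untreated MyD88pko and 263, 302 and 385 CPM with NTN. Each of the 6 NTN libraries stood above each of the 5 untreated ones. The log2 fold change was 0.63 (SE 0.16, adjusted p = 0.00975) in PodTOM and 0.89 (SE 0.18, adjusted p = 0.00346) in MyD88pko. On the TPM scale the PodTOM difference fell to 0.23 and did not pass (adjusted p = 0.193 with a pseudocount of 1, range over all alternatives 0.000517 to 0.193). The PodTOM call held in 19 of 22 alternatives. In MyD88pko the call ended without BKV_729 (adjusted p = 0.0796) and with length-scaled counts (adjusted p = 0.0547).

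Anxa1 (chr19:20373428-20390944, minus strand), an annexin released by leukocytes and epithelia that limits inflammation through formyl peptide receptors, was at 261, 336 and 243 CPM in untreated PodTOM and at 384, 360 and 438 CPM with NTN. It was at 235 and 249 CPM in untreated MyD88pko and at 363, 371 and 551 CPM with NTN. The groups did not overlap in either genotype, and BKV_890 was the highest library. In MyD88pko the log2 fold change was 0.82 (SE 0.20, adjusted p = 0.0106), a call that held in 19 of 22 alternatives. It ended, among others, without either untreated library of that genotype (adjusted p = 0.103 without BKV_729 and 0.0862 without BKV_733). In PodTOM the log2 fold change was 0.49 (SE 0.18, adjusted p = 0.0504), just outside the threshold, and 12 of 22 alternatives called it, among them the fits without AOL_1082, BKV_889 or BKV_890, with adjusted p between 0.0046 and 0.17.

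Anxa5 (chr3:36448923-36475894, minus strand), known as the protein that labels phosphatidylserine on dying cells, was at 73.9, 87.4 and 108 CPM in untreated PodTOM and at 119, 112 and 95.7 CPM with NTN, so that these groups overlapped (log2 fold change 0.28, SE 0.17, adjusted p = 0.225). In MyD88pko it was at 69.3 and 89.9 CPM without serum and at 140, 123 and 153 CPM with NTN. Here the groups stood apart, with a log2 fold change of 0.80 (SE 0.19, adjusted p = 0.00939). That call held in 18 of 22 alternatives and ended, among others, without BKV_729 (adjusted p = 0.143) and with the covariate (adjusted p = 0.106).

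Anxa2 (chr9:69453620-69491795, plus strand), the partner of S100a10 and a receptor for plasminogen and its activator at cell surfaces, did not pass in either genotype as a gene. Its libraries held 442, 457 and 382 CPM in untreated PodTOM and 335, 328 and 447 CPM with NTN, and 406 and 415 CPM in untreated MyD88pko and 425, 411 and 556 CPM with NTN. The groups overlapped in both genotypes, with log2 fold changes of -0.21 (SE 0.16, adjusted p = 0.363) and 0.18 (SE 0.18, adjusted p = 0.509). The PodTOM difference depended on the scale: on TPM with a pseudocount of 1 it was -0.59 and passed as lower (adjusted p = 0.00523, range over all alternatives 0.00496 to 0.637), on a scale where the median of all genes moved from 0.19 to -0.16 and the share of calls that were higher from 61.6% to 28.8%. In MyD88pko these shares were 57.8% and 41.9% and the median moved from 0.16 to -0.05. Anxa4 (chr6:86736840-86793584, minus strand), an annexin of the apical side of secretory epithelia, ranged from 154 to 245 CPM over all libraries, with log2 fold changes of 0.02 (SE 0.15, adjusted p = 0.931) and 0.27 (SE 0.17, adjusted p = 0.260). The sign of the Anxa4 value in PodTOM turned under several alternatives, TPM included.

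S100a6 (chr3:90612882-90624181, plus strand), also called calcyclin after its link to cycling cells and a partner of annexins, had the largest fold change of the 10 in both genotypes. Its estimated counts were 0, 14 and 6 in the untreated PodTOM libraries and 1 and 8 in the untreated MyD88pko libraries. With NTN they were 856, 431 and 653 in PodTOM and 703, 403 and 602 in MyD88pko. In CPM the NTN libraries held 40.1, 16.6 and 30.9 in PodTOM and 28.4, 17.4 and 20.0 in MyD88pko, and no untreated library was above 0.742. The log2 fold change was 6.15 (SE 0.62, adjusted p = 2.32e-05) in PodTOM and 6.18 (SE 0.78, adjusted p = 0.000195) in MyD88pko, that is 70.9-fold and 72.2-fold on a base of 20 and 9 counts in all, and S100a6 was called in 22 of 22 alternatives in both genotypes, with log2 fold changes from 5.30 to 8.27.

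S100a10 (chr3:93555080-93564643, plus strand), also known as p11, was at 45.5, 31.2 and 35.3 CPM in untreated PodTOM and at 70.0, 58.5 and 71.6 CPM with NTN. It was at 35.4 and 38.2 CPM in untreated MyD88pko and at 82.6, 74.3 and 94.1 CPM with NTN. All NTN libraries stood above all untreated libraries. The log2 fold change was 0.84 (SE 0.17, adjusted p = 0.00239) in PodTOM, or 1.79-fold, and 1.19 (SE 0.20, adjusted p = 0.000785) in MyD88pko, or 2.28-fold. It was called in 21 of 22 alternatives in PodTOM, the exception being the covariate fit (log2 fold change 0.92, adjusted p = 0.107, range over the alternatives 0.000103 to 0.107), and in 22 of 22 in MyD88pko.

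S100a11 (chr3:93520488-93526287, plus strand), a partner of Anxa1 that lies near S100a10, was the most abundant of the 10 and did not pass. It held 715, 474 and 394 CPM in untreated PodTOM and 433, 450 and 499 CPM with NTN, and 556 and 735 CPM in untreated MyD88pko and 516, 454 and 668 CPM with NTN. All groups overlapped, with log2 fold changes of -0.20 (SE 0.20, adjusted p = 0.502) and -0.24 (SE 0.23, adjusted p = 0.462). S100a11 levels are uncertain, since 48.9% of its 31-base words also occur in 6 other genes, among them the pseudogenes Gm12854, Gm7665, Gm29240 and S100a11-ps, and reads could be split among them. The pseudogene Gm12854 held 27.1 to 128 estimated counts a library. The corresponding share was 3.20% for Anxa4, 0.436% for Anxa3 and 0.424% for S100a10, and 0 for the other 6 genes.

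**Figure D2:**
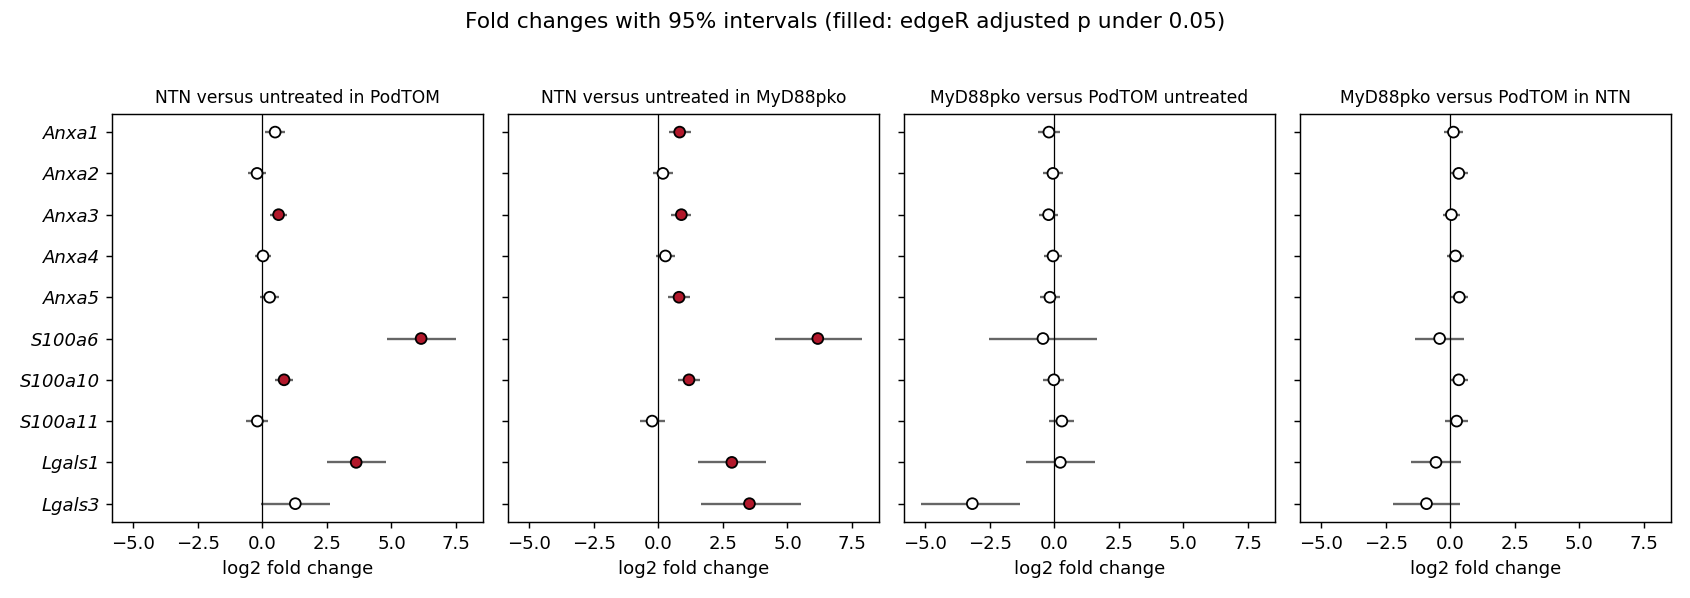
Log2 fold change (x axis) of each of the 10 genes with its 95% interval in 4 comparisons, filled where the edgeR adjusted p was below 0.05. Filled points are confined to the 2 NTN panels, 4 in PodTOM and 7 in MyD88pko, with S100a6 farthest to the right at 6.15 and 6.18.

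Of the galectins, Lgals1 (chr15:78926725-78930465, plus strand), a dimeric galectin best known for damping T cell responses, held 10, 9 and 15 estimated counts in untreated PodTOM and 238, 247 and 137 with NTN, and 23 and 3 counts in untreated MyD88pko and 181, 100 and 206 with NTN. In CPM this was 0.772, 0.477 and 0.943 against 11.1, 9.51 and 6.49 in PodTOM, and 1.496 and 0.200 against 7.32, 4.31 and 6.83 in MyD88pko. Every NTN library exceeded every untreated one. The log2 fold change was 3.63 (SE 0.55, adjusted p = 0.000249) in PodTOM and 2.85 (SE 0.62, adjusted p = 0.00505) in MyD88pko. Lgals1 was called in 21 of 21 alternatives in PodTOM and in 18 of 21 in MyD88pko, where the call ended without BKV_733, without the 3 libraries richest in vomeronasal reads and with the covariate.

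Lgals3 (chr14:47367751-47386160, plus strand), the chimeric galectin that macrophages and injured epithelia make, was the least abundant of the 10. It held 9, 13 and 37 estimated counts in untreated PodTOM and 70, 75 and 60 with NTN, and 3 and 1 counts in untreated MyD88pko and 39, 35 and 50 with NTN. In CPM the levels were 0.695, 0.689 and 2.33 against 3.28, 2.89 and 2.84 in PodTOM, and 0.195 and 0.0668 against 1.58, 1.51 and 1.66 in MyD88pko. The groups did not overlap in either genotype, and AOL_1086 was by far the highest of the untreated libraries. The log2 fold change was 1.27 (SE 0.63, adjusted p = 0.137) in PodTOM and 3.53 (SE 0.91, adjusted p = 0.0121) in MyD88pko, the latter on a base of 4 counts in all. Without AOL_1086 the PodTOM value was 2.11 and passed (adjusted p = 0.0464, range over the alternatives 0.0464 to 0.531). In MyD88pko the call ended without BKV_729 (adjusted p = 0.0521), without BKV_733 (adjusted p = 0.14), without the 3 libraries richest in vomeronasal reads (adjusted p = 0.109) and with the covariate (adjusted p = 0.0858).

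Counted by library separation in CPM, 6 of the 10 genes had all NTN libraries above all untreated libraries in PodTOM and 8 of 10 in MyD88pko, where the background shares of genes with non-overlapping groups, in either direction, were 42.8% and 51.5%. In TPM, Anxa3, S100a6, S100a10 and Lgals1 still stood higher in PodTOM, Anxa1 and Lgals3 overlapped, and Anxa2 and S100a11 stood lower. In MyD88pko the same genes separated on both scales. In CPM, Anxa1, Anxa3, S100a6, S100a10 and Lgals1 separated all 6 NTN from all 5 untreated libraries, and in TPM all of these but Anxa1 did. The share of all genes was not computed for this split, nor for any separation in TPM, so these are descriptions without a background. Within MyD88pko with NTN, BKV_890 was above its group mean for 9 of the 10 genes and BKV_889 for none.

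The files resolve transcripts, and 4 genes whose makeup differed between untreated and NTN libraries are described here. They are not the only ones: the S100a6-201 share was 0% to 27.9% untreated, on 1 to 14 gene counts a library, and 47.0% to 65.1% with NTN. How many of all genes differ in this way was not counted, and no test of shares was run. In the annotation, another transcript of each of the 4 genes parts from the main coding transcript where it reads on into an intron. The 50 bases around the point where each pair parts are shown to mark what sets the transcripts apart. Lower case marks 25 bases that both transcripts share, and capitals the 25 bases on the side where they part, single letters of which can agree. Bases run in the direction of transcription, from GENCODE M21 transcripts on GRCm38. The first pair parts after exon 2 of 3 of S100a10 (chr3:93560944-93561095), where S100a10-202 reads on for 410 bases of the intron. The second parts after exon 7 of Anxa3 (chr5:96824887-96824966), where Anxa3-205 reads on for 942 bases. In the third, Anxa2-205 carries 1213 bases of intron ahead of exon 5 of Anxa2-201 (chr9:69479678-69479791), and in the fourth, Anxa1-202 carries 240 bases ahead of exon 12 of 13 of Anxa1-201 (chr19:20375225-20375347, minus strand).
S100a10-201: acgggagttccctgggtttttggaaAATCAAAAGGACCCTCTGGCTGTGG
S100a10-202: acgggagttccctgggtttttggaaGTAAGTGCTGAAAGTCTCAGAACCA
Anxa3-201: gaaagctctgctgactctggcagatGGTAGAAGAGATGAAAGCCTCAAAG
Anxa3-205: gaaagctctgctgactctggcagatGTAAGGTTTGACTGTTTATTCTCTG
Anxa2-201: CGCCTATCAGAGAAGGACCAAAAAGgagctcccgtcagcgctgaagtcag
Anxa2-205: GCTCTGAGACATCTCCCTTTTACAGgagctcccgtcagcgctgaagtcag
Anxa1-201: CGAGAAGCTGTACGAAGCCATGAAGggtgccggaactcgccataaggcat
Anxa1-202: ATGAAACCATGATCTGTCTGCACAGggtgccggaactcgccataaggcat

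In S100a10-202 and Anxa3-205 the capitals open with GT, the letters at which introns usually start. In Anxa2-205 and Anxa1-202 they close with AG, the letters at which introns usually end. AG also closes the capitals of Anxa2-201 and Anxa1-201, so these letters do not tell those pairs apart. The coding transcript S100a10-201 made up 50.9% to 68.9% of the gene's estimated counts in untreated PodTOM and 89.1% to 93.0% with NTN, and 70.8% to 71.1% in untreated MyD88pko and 90.7% to 94.2% with NTN. The retained-intron transcript S100a10-202 went from 23.5% to 43.2% down to 5.87% to 7.50% in PodTOM, and from 16.5% to 26.9% down to 4.14% to 7.46% in MyD88pko. In no case did the NTN and untreated libraries overlap. As single transcripts, S100a10-201 was at 22.2, 20.3 and 22.4 CPM in untreated PodTOM against 68.3, 55.0 and 62.0 CPM with NTN, and at 23.4 and 25.4 CPM in untreated MyD88pko against 87.2, 75.1 and 91.8 CPM with NTN. Its log2 fold changes of 1.51 (SE 0.15, adjusted p = 0.000778) and 1.79 (SE 0.17, adjusted p = 0.000923) were larger than those of the gene sum, and S100a10-202 itself did not pass (log2 fold changes -1.44 and -0.53, adjusted p = 0.0726 and 0.532).

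In Anxa3 the share of Anxa3-201 likewise grew with NTN, and that of Anxa3-205, annotated as coding, shrank. Anxa3-201 took 19.5% to 37.5% of the gene's counts in untreated PodTOM and 59.9% to 64.5% with NTN, and 29.1% to 43.2% in untreated MyD88pko and 72.1% to 78.0% with NTN. Its level rose from 36.2, 72.3 and 66.5 CPM to 192, 199 and 190 CPM in PodTOM (log2 fold change 1.73, adjusted p = 0.00323), and from 61.1 and 51.7 CPM to 229, 253 and 289 CPM in MyD88pko (log2 fold change 2.19, adjusted p = 0.00265). These groups stood far apart. Anxa3-205 took 33.8% to 50.4% of the counts in untreated PodTOM and 16.0% to 19.0% with NTN, and its own level did not pass (log2 fold changes -0.48 and -0.43, adjusted p = 0.370 and 0.481).

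Anxa2, which did not pass as a gene, was made up differently with NTN. Anxa2-201, the main coding transcript, took 52.3% to 58.9% of the counts in untreated PodTOM and 73.3% to 83.0% with NTN, and 49.9% to 52.9% in untreated MyD88pko and 80.2% to 86.0% with NTN. Its level was 249, 231 and 190 CPM against 290, 278 and 319 CPM in PodTOM (log2 fold change 0.40, adjusted p = 0.110), and 190 and 206 CPM against 410, 388 and 466 CPM in MyD88pko (log2 fold change 1.09, adjusted p = 0.00445). The NTN libraries were above the untreated ones in both genotypes. The coding transcript Anxa2-204 fell in both, by 1.78 (adjusted p = 0.0161) and by 1.69 (adjusted p = 0.0295) on the log2 scale, from 17.8, 44.4 and 35.6 CPM to 11.04, 7.24 and 10.3 CPM and from 45.6 and 40.2 CPM to 11.7, 10.99 and 17.1 CPM. Anxa2-202 also fell, by 1.95 (adjusted p = 0.0416, called in 3 of 14 alternatives) in PodTOM and by 2.71 (adjusted p = 0.0168, called in 8 of 14) in MyD88pko. The retained-intron transcript Anxa2-205 went from 20.2% to 20.6% down to 7.79% to 13.3% of the counts in PodTOM. In MyD88pko its share went from 17.9% to 20.0% down to 5.21% to 9.26%. Its own level was not called in either genotype.

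Anxa1 moved in the other direction in PodTOM, where the share of the coding Anxa1-201 went from 75.8% to 78.4% down to 67.6% to 72.4%. The retained-intron transcript Anxa1-202 rose from 24.8, 19.6 and 11.3 CPM to 100, 87.2 and 87.7 CPM (log2 fold change 2.31, SE 0.30, adjusted p = 0.0029), that is from 4.89% to 9.97% up to 20.6% to 24.9% of the gene's counts. In MyD88pko it rose from 24.7 and 21.1 CPM to 59.3, 57.7 and 97.6 CPM (log2 fold change 1.64, adjusted p = 0.0262), and the coding Anxa1-201 rose as well, from 159 and 176 CPM to 328, 335 and 446 CPM (log2 fold change 1.14, adjusted p = 0.011). There the share of Anxa1-202 went from 9.04% to 11.3% up to 14.0% to 17.0%. The share of Anxa1-201 went from 72.5% to 75.4% up to 77.5% to 81.1%. Another retained-intron transcript, Anxa1-206, fell by 1.397 in MyD88pko (adjusted p = 0.0293), and its PodTOM value was -1.02 (adjusted p = 0.0597).

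Of 48 transcripts of the 10 genes, 38 were tested among 58398, and with NTN 6 were higher and 2 lower in PodTOM and 8 higher and 3 lower in MyD88pko, against 5.4% and 4.28% of all transcripts called in either direction. The other calls were S100a6-201 and S100a6-203 in both genotypes, Lgals1-201 in PodTOM and Anxa5-201 in MyD88pko. Both S100a6 transcripts code for protein, and with NTN S100a6-201 held 47.0% to 65.1% of the gene's counts. The share of counts on transcripts annotated as retained introns was 10.55% to 11.3% over all genes in untreated PodTOM, 10.2% to 10.9% in PodTOM with NTN, 11.96% in both untreated MyD88pko libraries and 8.69% to 10.1% in MyD88pko with NTN. For Anxa2 it went from 29.4% to 30.2% down to 12.3% to 20.2% in PodTOM. The transcript tests were added after the shares had been seen, and counts of overlapping transcripts are estimates that share reads. All calls in PodTOM among these transcripts ended with the vomeronasal covariate, while over the 14 alternatives the PodTOM log2 change stayed at 1.44 to 1.59 for S100a10-201 and at 7.52 to 11.4 for S100a6-201, and in MyD88pko S100a10-201, Anxa3-201 and Anxa1-201 kept theirs. Over 14 alternatives, S100a10-201 was called in 13 and 14 (PodTOM, then MyD88pko), Anxa3-201 in 13 and 13, S100a6-201 in 13 and 12, Anxa1-202 in 13 and 9 and Anxa2-204 in 9 and 8. In MyD88pko, Anxa2-201 was called in 11 of 14, the call ending without BKV_733, without the 3 libraries richest in vomeronasal reads and with the covariate. The Anxa1-201 call ended without BKV_729, without BKV_733 and without those 3 libraries.

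**Figure D3:**
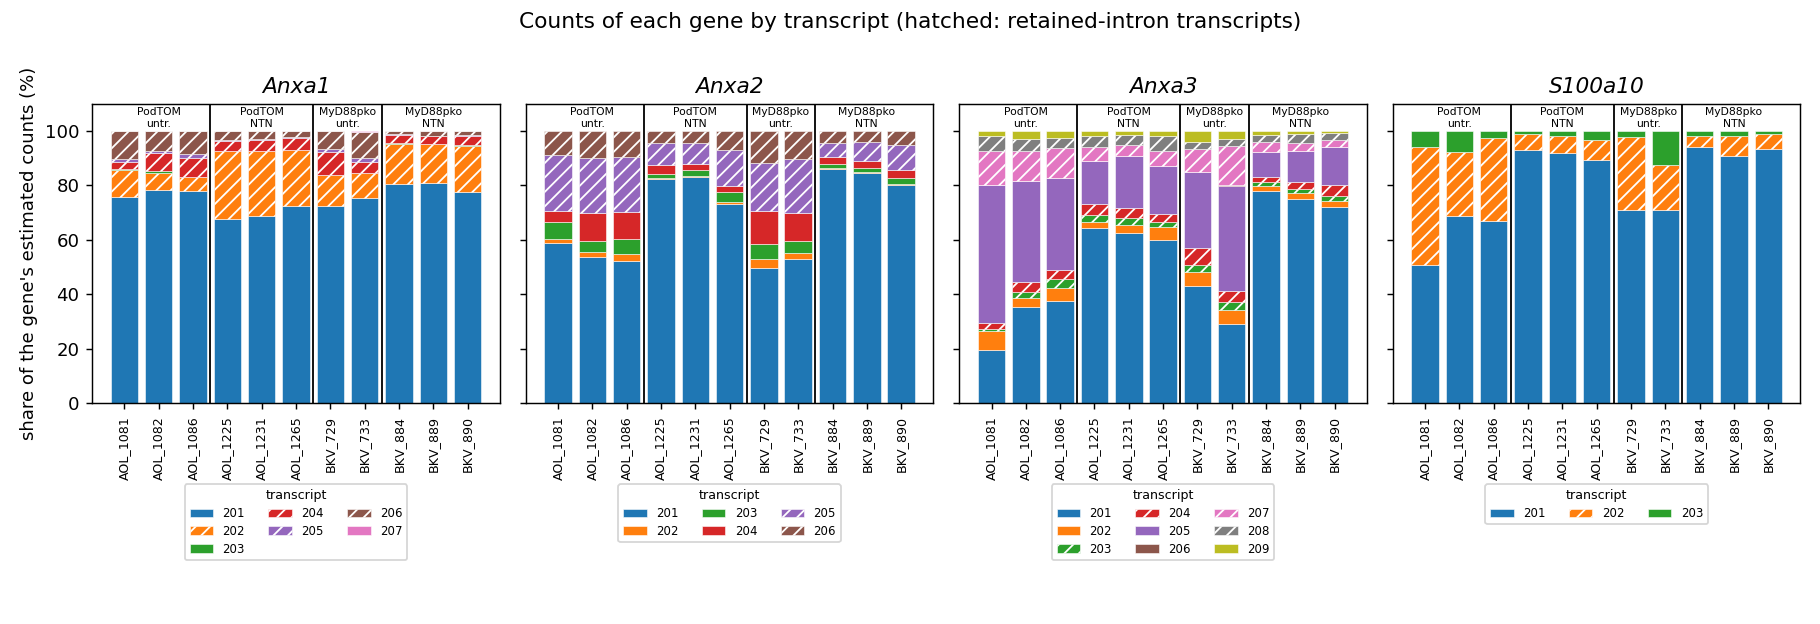
Share of each gene's estimated counts (y axis, percent) by transcript in the 11 libraries for Anxa1, Anxa2, Anxa3 and S100a10, with retained-intron transcripts hatched. The 201 transcript takes a larger share in all NTN than in all untreated libraries for Anxa2, Anxa3 and S100a10. For Anxa1 the hatched 202 transcript grows in both genotypes, to 20.6% to 24.9% in PodTOM and to 14.0% to 17.0% in MyD88pko.

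The S100a10 protein is stable largely in complex with Anxa2, so their transcript levels were set side by side. The ratio of S100a10 to Anxa2 in TPM was 0.239, 0.153 and 0.199 in untreated PodTOM (mean 0.197 ± 0.043, SD, n = 3) and 0.494, 0.422 and 0.378 with NTN (0.431 ± 0.058, n = 3). In MyD88pko it was 0.178 and 0.206 without serum (0.192 ± 0.019, n = 2) and 0.464, 0.440 and 0.401 with NTN (0.435 ± 0.032, n = 3). The lowest NTN library exceeded the highest untreated one, and the genotypes overlapped in both states. No test was run on the ratio. The TPM of Anxa2 was 404 to 556 in PodTOM with NTN and 648 to 790 in the untreated libraries, so that in PodTOM both parts of the ratio moved on this scale. In MyD88pko Anxa2 was at 691 to 740 TPM and then at 649 to 712 TPM. The fall in PodTOM was not seen in CPM, where Anxa2 overlapped at 328 to 447 with NTN and 382 to 457 untreated. Anxa2-201 alone stood higher with NTN in PodTOM, at 278 to 319 against 190 to 249 CPM, and was not called. With the 201 transcript of each gene alone, the mean ratio was 0.517 in PodTOM with NTN and 0.503 in MyD88pko with NTN, against 0.238 in untreated PodTOM and 0.300 in untreated MyD88pko.

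**Figure D4:**
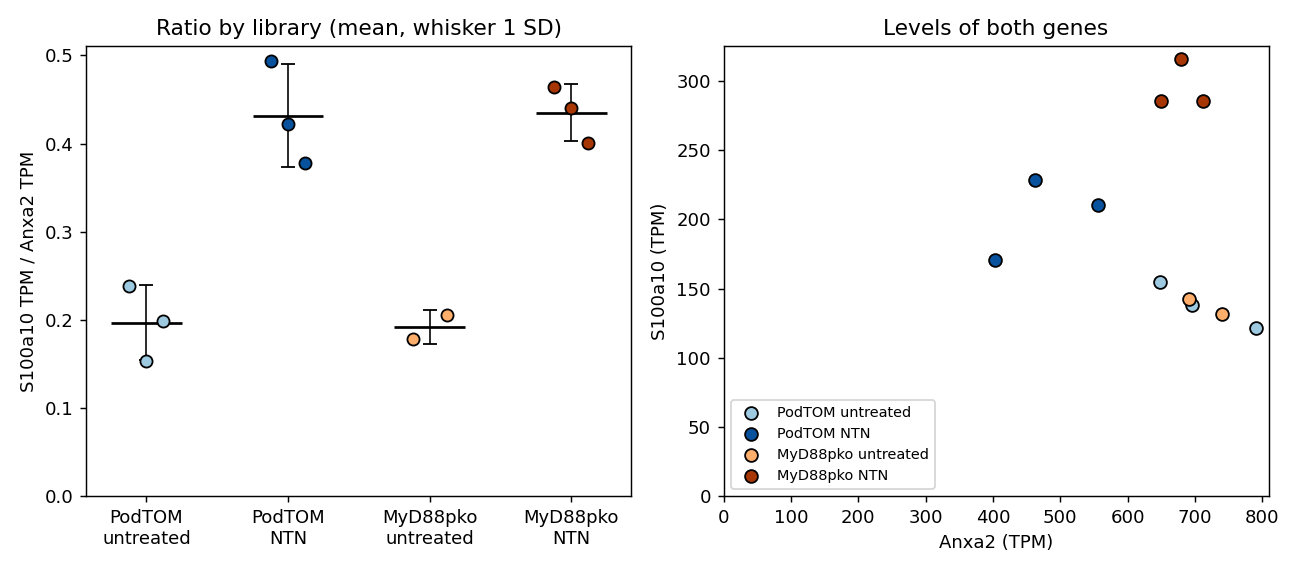
Left, the ratio of S100a10 to Anxa2 TPM (y axis) in each library by group with mean and 1 SD. Right, S100a10 TPM (y axis) against Anxa2 TPM (x axis) in the same libraries, where the NTN libraries lie above the untreated ones in S100a10 and the PodTOM libraries with NTN lie lowest in Anxa2, at 404 to 556 TPM.

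The comparison of genotypes asked whether loss of Myd88 in podocytes altered these genes. None of the 10 was called, in untreated podocytes, with NTN or in the difference between the NTN responses. This is to be read against background shares of only 0.0189%, 0.0613% and 0.00472% of all genes called by edgeR. At an unadjusted p below 0.05 there were 1, 0 and 1 of the 10 genes, respectively, against 1187, 1280 and 1232 of all 21200 genes, and DESeq2 and limma also called none. In untreated podocytes Lgals3 was lower in both MyD88pko than in all 3 PodTOM libraries, with a log2 difference of -3.18 (95% interval -5.16 to -1.31, adjusted p = 0.564), on 4 against 59 counts in all. It was the single gene of the 10 whose groups did not overlap there, against 18.0% of all genes.

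With NTN, Lgals3 was again lower in all 3 MyD88pko libraries, at 1.51 to 1.66 CPM against 2.84 to 3.28 CPM (log2 difference -0.92, 95% interval -2.22 to 0.37, adjusted p = 0.968). Anxa5 and S100a10 were higher in all 3 MyD88pko libraries, with log2 differences of 0.35 (95% interval -0.01 to 0.70, adjusted p = 0.844) and 0.33 (95% interval -0.03 to 0.68, adjusted p = 0.871). In CPM these were 3 of 10 genes with groups that did not overlap, against 12.6% of all genes. In TPM, Anxa2, Anxa4 and S100a11 were also higher in all 3 MyD88pko libraries, but the share of all genes that separate on that scale was not computed. For Anxa1 the log2 difference with NTN was 0.12 with an interval of -0.25 to 0.49, and for Anxa3 0.04 with an interval of -0.29 to 0.38. The interval for S100a6 ran from -1.37 to 0.54 and that for Lgals1 from -1.53 to 0.42, so that differences over 2-fold toward PodTOM were not excluded at this number of libraries. The difference between the NTN responses (MyD88pko minus PodTOM, log2 scale) was 2.25 for Lgals3 (95% interval 0.01 to 4.61, adjusted p = 0.855), -0.79 for Lgals1 (95% interval -2.45 to 0.87, adjusted p = 1) and 0.52 for Anxa5 (95% interval -0.02 to 1.06, adjusted p = 0.877), and it was smaller in size for the other 7 genes.

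Beyond the 10 genes, the rest of the annexin, S100 and galectin families and a list of binding partners were counted. Of 13 other S100 genes, 8 were tested, and with NTN 4 rose and 1 fell in PodTOM and 4 rose and none fell in MyD88pko. Over all genes 25.9% and 19.5% were called in either direction. The median log2 fold changes of the list were 1.29 and 1.79, against 0.19 and 0.16 over all genes tested. S100a16, a widely expressed S100 protein, was at 3.24, 6.14 and 4.97 CPM in untreated PodTOM and 11.8, 12.1 and 10.1 CPM with NTN, and at 4.36 and 5.47 CPM in untreated MyD88pko and 14.8, 14.9 and 17.6 CPM with NTN (log2 fold changes 1.23 and 1.68, adjusted p = 0.00472 and 0.00237), and was called in 21 and 22 of 22 alternatives. S100a13, which takes part in the release of growth factors that lack a signal peptide, rose in both genotypes (1.35 and 1.73, adjusted p = 0.00352 and 0.00261). Its call held in 21 of 22 alternatives in each and ended with the covariate (adjusted p = 0.198 and 0.0595). S100a1, best known from heart muscle, rose in both as well (1.62 and 1.85, adjusted p = 0.0207 and 0.0288, called in 17 and 16 of 22).

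S100a4, known from fibroblasts and migrating cells, was at 0, 0.265 and 0.691 CPM in untreated PodTOM and 5.53, 1.27 and 1.99 CPM with NTN (log2 fold change 3.15, adjusted p = 0.025, called in 14 of 21 alternatives). In MyD88pko it was at 0 in both untreated libraries and at 2.83, 0.904 and 2.45 CPM with NTN, at least 20.9-fold higher when the untreated group is set at 3 counts in all (adjusted p = 0.00729). That call held in 17 of 21 alternatives and ended, among others, without either untreated library of that genotype and with the covariate. S100g, the calcium carrier of transporting epithelia, was at 0, 0.477 and 2.83 CPM in untreated PodTOM and at 0 in all 3 PodTOM libraries with NTN, at least 25.1-fold lower by the same floor, with AOL_1086 holding most of its reads (called in 13 of 19 alternatives). The neutrophil genes S100a8 and S100a9 were at 0 in all untreated libraries and at no more than 0.234 and 1.45 CPM with NTN.

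Of 7 other annexins 5 were tested. With NTN in PodTOM, 2 rose and 1 fell, and in MyD88pko 1 rose, against 25.9% and 19.5% of all genes called in either direction. Anxa6, the largest annexin, was at 18.3 to 33.7 CPM in untreated PodTOM and 37.0 to 46.1 CPM with NTN (log2 fold change 0.75, adjusted p = 0.0211, called in 14 of 22 alternatives). Anxa7, an annexin of secretory granules, fell from 143 to 179 CPM to 95.7 to 109 CPM (by 0.61 on the log2 scale, adjusted p = 0.00711, called in 21 of 22 alternatives, the exception being the covariate fit with adjusted p = 0.35). Their MyD88pko values were 0.71 and -0.46, with adjusted p = 0.0569 and 0.0565. Anxa10, an annexin of gastric epithelium, had no reads in any untreated library and 0.237 to 1.87 CPM with NTN, at least 14.1-fold higher in PodTOM (adjusted p = 0.0139) and at least 7.14-fold higher in MyD88pko (adjusted p = 0.0474) against a floor of 3 counts over the untreated group. Its call in MyD88pko held in 10 of 18 alternatives.

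Of 8 other galectins listed 7 were in the files and tested, and 1 rose and 1 fell in PodTOM with NTN, while none was called in MyD88pko. The shares of all genes called in either direction were 25.9% and 19.5%. Lgals9, a galectin with paired sugar-binding domains induced by interferon, went from 4.87, 3.18 and 7.29 CPM to 19.3, 15.6 and 10.8 CPM in PodTOM (log2 fold change 1.57, adjusted p = 0.00239, called in 21 of 22 alternatives, the exception being the covariate fit with adjusted p = 0.339). In MyD88pko it stood at 7.61 and 5.94 CPM and at 12.7, 11.4 and 10.6 CPM with NTN (0.77, adjusted p = 0.131). Lgalsl, a galectin-like protein, fell by 0.73 in PodTOM (adjusted p = 0.0183), and its MyD88pko value was -0.62 (adjusted p = 0.0652).

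All 14 binding partners and receptors were tested, and 3 rose and 2 fell in PodTOM, whereas 1 fell in MyD88pko. Of all genes, 25.9% and 19.5% were called in either direction. Plat, the tissue plasminogen activator that the complex of Anxa2 and S100a10 binds, was at 2687, 1886 and 1864 CPM in untreated PodTOM and 969, 1104 and 957 CPM with NTN, and at 2137 and 2180 CPM in untreated MyD88pko and 1056, 1004 and 1357 CPM with NTN. It fell by 1.09 (adjusted p = 0.000402) and by 0.92 (adjusted p = 0.00328) on the log2 scale, and the groups did not overlap. The Plat call held in 21 and 20 of 22 alternatives and ended with the covariate in both genotypes (adjusted p = 0.11 and 0.156) and, in MyD88pko, without the 3 libraries richest in vomeronasal reads (log2 change -0.63, adjusted p = 0.161). In PodTOM, Dysf, the membrane repair protein dysferlin that binds annexins, rose by 2.47 (adjusted p = 0.00163), Lgals3bp, a secreted ligand of galectins, by 1.64 (adjusted p = 0.0025), and Ager, a receptor for S100 proteins, by 1.16 (adjusted p = 0.0107, called in 15 of 22 alternatives). Their MyD88pko values of 0.48, 0.75 and 0.33 did not pass (adjusted p = 0.518, 0.161 and 0.487). In PodTOM the Dysf call held in 20 of 21 alternatives and the Lgals3bp call in 21 of 22. Both ended with the covariate (adjusted p = 0.199 and 0.382). Mgat5, the enzyme that builds branched glycans bound by galectins, fell by 0.54 in PodTOM (adjusted p = 0.034, called in 13 of 22 alternatives), a value that turned positive with the covariate, and it was at -0.06 in MyD88pko (adjusted p = 0.861). None of the genes of these 4 lists was called between genotypes or in the difference between responses.

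**Figure D5:**
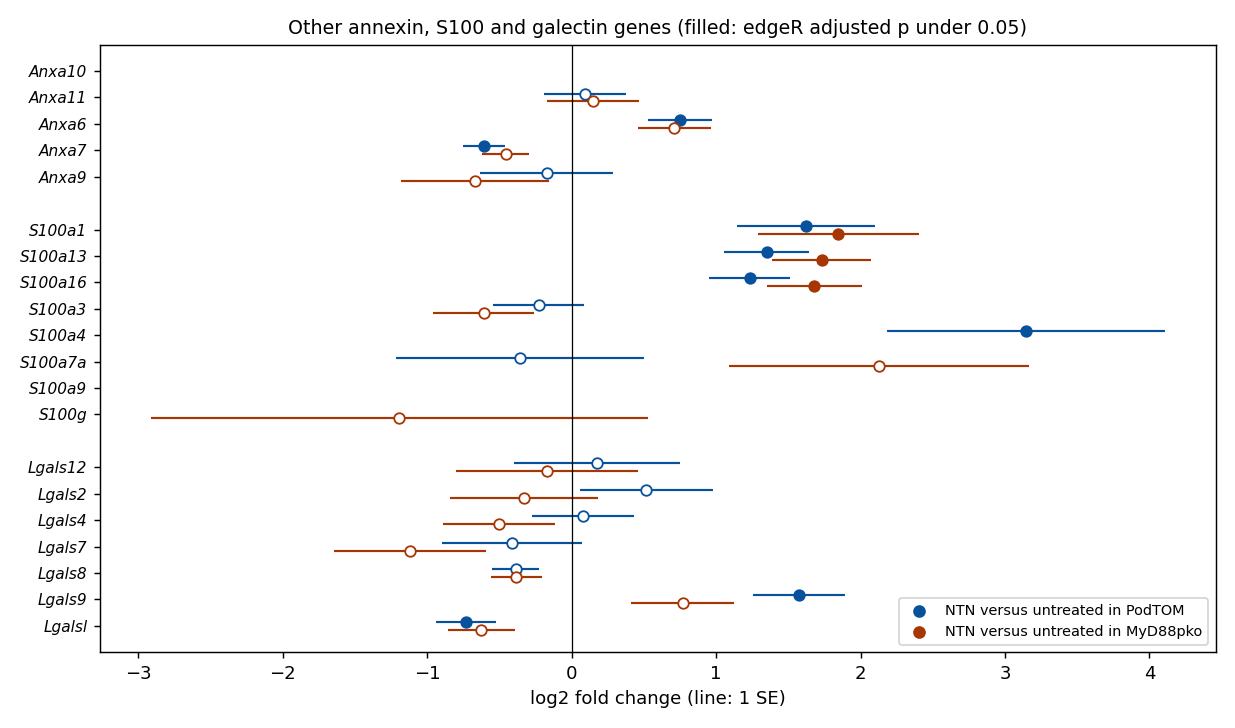
Log2 fold change with NTN (x axis, line 1 SE) of the other tested annexin, S100 and galectin genes in PodTOM and MyD88pko, filled where the edgeR adjusted p was below 0.05. S100a1, S100a13 and S100a16 are filled in both genotypes, and no value is drawn where one of the groups had no reads, as for Anxa10 and S100a9.

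As a description over the 11 libraries, which share their 4 groups, the tested genes most like each of the 10 in log2 CPM were listed by Pearson's r. Anxa1 and Anxa3 were both close to Actb, the cytoskeletal β-actin (r = 0.97 and 0.96), Anxa1 also to Dda1 and Sc5d and Anxa3 to Csrp1 and Cdk6. S100a10 was closest to the ribosomal gene Rps15, the tubulin Tuba1b and Gm10053 (r = 0.98 to 0.99), S100a6 to Ndufb5, Gm10717 and Gm10800 (r = 0.98 to 0.99), and Lgals1 to Fkbp8, Tnfaip2 and Uqcrq (r = 0.97 to 0.98). For the genes that did not pass, the leading neighbours were Slc2a1, Chp1 and Coa5 for Anxa2, Polr2c and Cops5 for Anxa4, and Pdpn, the podocyte surface protein podoplanin, Fbrsl1 and Pxmp4 for S100a11, with a highest r of 0.94 in each case. Anxa5 was nearest to Vps25, Ufc1 and Mdh2 (highest r = 0.95) and Lgals3 to Plekhf1, Pamr1 and Zfp263 (highest r = 0.93).

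The 250 bases ahead of the transcript start were read for 7 of the 10 genes, 8 sequences in all, from RefSeq on GRCm38.p6. The S100a6 and S100a11 windows are shown as the promoters of the gene with the largest fold change and of the most abundant gene. They were searched on both strands for AP-1 (TGANTCA, in 6.75% of all 32851 windows), TEAD (GGAATG, 12.6%), NF-kB (GGGA, any 4 bases, then CC, 17.6%) and the CArG box (1.47%), which are in capitals, and for the E-box (CANNTG, 66.2%), which is not. The S100a6 window (chr3:90612644-90612893, plus strand) held none of the first 4 motifs and 1 E-box, 117 bases before the start. The S100a11 window (chr3:93520246-93520495, plus strand) held AP-1 letters 136 and 38 bases before the start and NF-kB letters 87 bases before it.
S100a6: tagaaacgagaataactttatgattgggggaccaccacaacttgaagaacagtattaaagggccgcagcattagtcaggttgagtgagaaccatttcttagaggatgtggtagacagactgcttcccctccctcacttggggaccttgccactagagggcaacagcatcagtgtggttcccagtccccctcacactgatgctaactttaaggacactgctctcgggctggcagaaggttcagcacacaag
S100a11: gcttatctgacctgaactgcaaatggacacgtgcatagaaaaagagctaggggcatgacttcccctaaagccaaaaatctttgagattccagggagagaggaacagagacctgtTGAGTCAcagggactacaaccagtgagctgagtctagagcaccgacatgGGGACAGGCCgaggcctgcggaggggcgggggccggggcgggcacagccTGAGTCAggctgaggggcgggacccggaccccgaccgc

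Of the other windows, that of Anxa2 held AP-1 letters 95 bases before the start, that of Anxa1 TEAD letters at 236 and NF-kB letters at 197 bases, that of Lgals3 NF-kB letters at 91 and 70 bases, and 1 of the 2 Anxa4 windows NF-kB letters at 55 bases. These are descriptions of letters in the windows.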

How the data were processed

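mTomato-positive podocytes were sorted, and their RNA was amplified before library construction. The sources used here do not say how many mice made up a library, so p-values measure the spread between libraries. The authors trimmed reads with cutadapt 3.5 and deposited estimated counts per transcript, made with kallisto 0.43.1 against Ensembl 90 (GRCm38), in 1 table a library; FastQC, SAMtools and sleuth are also named in the processing notes. No TPM column was in the tables, so TPM was recomputed from deposited counts and effective lengths. Of 109282 transcripts 107987 matched GENCODE M21 and were summed to 34547 genes, and the unmatched ones held 0.467% to 0.638% of the counts.

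Gene sums were rounded to whole numbers and fitted in edgeR 4.0.16 (R 4.3.3; TMM, filterByExpr with a minimum count of 10, robust quasi-likelihood F test, 1 coefficient for each of the 4 groups, all 11 libraries), with Benjamini-Hochberg adjustment over 21200 genes and a threshold of 0.05. The study's own transcript test was not rerun here. All 10 genes were named whatever they showed, as were genes of the related lists called with NTN, at most 4 binding partners by smallest adjusted p (Mgat5 was added after its value was seen), and the 3 genes most correlated with each of the 10, of which 1 for Anxa4 is not reported here. The members and lists were chosen with earlier results of these data known. The test was tested on simulated counts. Alternatives were DESeq2 1.42.0, limma 3.58.1 on log2 TPM, other scalings and filters, and each library left out; the transcript fits and the alternatives for related genes were added after seeing the data. Tables were made in Python 3.11.15 with pandas 2.3.3 and numpy 2.4.6, and plots with matplotlib 3.10.9.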

Additional observations from a re-analysis of the deposited data

How the results depend on the processing

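No paired analysis was possible because the labels carry no replicate numbers. S100a6 was called with NTN in 22 of 22 alternatives in both genotypes, and no alternative called any of the 10 genes between genotypes or in the difference between responses. In PodTOM with NTN, 4 or 5 of the 10 genes were called under each alternative, but not always the same genes or direction. With limma on TPM at a pseudocount of 1, Anxa2 was called lower and Anxa3 did not pass. With the covariate, S100a10 did not pass. In MyD88pko the count was 4 with the vomeronasal covariate and 3 to 7 with 1 library left out, and 5 without the 3 libraries richest in vomeronasal reads, which left a lone MyD88pko NTN library, BKV_890, assumed to vary like the other groups. Leaving out those 3 libraries or adding the covariate changed the genes called with NTN to 2686 or 636 (PodTOM, from 5487) and to 929 or 1036 (MyD88pko, from 4133), with higher calls at 83.2% (PodTOM, covariate), 78.3% and 77.9% (MyD88pko). With 1 library left out these counts ran from 3269 to 6497 and from 1203 to 5535.

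Genes called between genotypes with NTN (main count 13) were 8 with RLE scaling, 131 with DESeq2, 177 with no filter on low counts, 8 at a mean of at least 5 CPM, 2 with the compared groups alone, 7 with length-scaled counts, 0 without the 3 libraries, 36 with the covariate, and 3 to 61 with 1 library left out. In untreated podocytes (main count 4) they were 34 with DESeq2, 137 with no filter, 0 with the compared groups alone, 2 with length-scaled counts, 1 and 8 with limma on TPM at pseudocounts of 1 and 0.1, 2 without the 3 libraries, and 0 to 8 with 1 library left out. For the difference between responses (main count 1) they were 44 with DESeq2, 92 with no filter, 0 at 5 CPM, 0 with limma at either pseudocount, 0 without the 3 libraries, and 1 to 4 with 1 library left out (4 without BKV_890). The ratio of S100a10 to Anxa2 from the 201 transcripts alone was 0.517 in PodTOM with NTN, 0.300 in untreated MyD88pko and 0.503 in MyD88pko with NTN.

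Except for Mgat5, signs turned in values that edgeR had not called in the reported fit, although limma on TPM called Anxa2 lower in PodTOM; the cause was not tested. With NTN in PodTOM, Anxa4 was -0.0466 and -0.0467 on TPM at pseudocounts of 1 and 0.1 and -0.0197 without the 3 libraries, and -0.13 to 0.12 with 1 library left out, S100a11 ran from -0.37 to 0.0496 likewise, and with the covariate Anxa2 was 0.26 and Mgat5 0.0258. With NTN in MyD88pko, Anxa2 was -0.0728 and -0.0729 on TPM at those pseudocounts and S100a11 0.0907 without the 3 libraries. Between genotypes with NTN, length-scaled counts gave Anxa1 -0.0597 and Anxa3 -0.0482, and leaving out 1 library -0.10 to 0.23 and -0.12 to 0.16. Between genotypes untreated, length-scaled counts gave Anxa5 0.0249 and Anxa2 0.0007; TPM at those pseudocounts gave Anxa5 0.0050 at both, Anxa2 0.0120 and 0.0121, Lgals1 -0.0668 and -0.29, and S100a6 0.15 at the smaller one; leaving out 1 library gave S100a10 -0.14 to 0.14, S100a6 -2.54 to 0.52, Anxa4 -0.17 to 0.0763, Anxa5 -0.37 to 0.0021 and Lgals1 -1.83 to 1.04. For the difference between responses, S100a11 was 0.0137 with RLE, 0.0140 with DESeq2 and 0.0143 with length-scaled counts, 0.14 on TPM at either pseudocount and 0.25 without the 3 libraries, S100a6 was -0.31 on TPM at a pseudocount of 0.1, and leaving out 1 library gave S100a6 -0.91 to 2.12, S100a11 -0.30 to 0.17 and Lgals1 -1.59 to 1.27. Depth limits Lgals3, Lgals1 and S100a6 in untreated podocytes, where they held 0 to 37 estimated counts a library.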
